A study of Mus musculus with 88 samples.

Results

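The genes of cholesterol and fatty acid synthesis were followed in mouse cortex after a controlled cortical impact, a model of traumatic brain injury. The set holds 34 genes, taken by symbol from the 54532 genes of the count table: 19 genes for enzymes of the sterol chain from acetyl-CoA onwards, 6 genes for sensing or moving sterols, and 9 genes for making, elongating or desaturating fatty acids. All 34 had a row in the table and all 34 passed the filter on low counts on both sides, so none was lost. RNA came from 44 C57BL/6 mice, which the labels give as 8 to 9 weeks old at surgery, with 1 library from the ipsilateral and 1 from the contralateral cortex of each mouse. Injured mice received a craniotomy and a single impact over the right somatosensory cortex under isoflurane, then buprenorphine, and were killed 24 or 72 h later. Naive mice had no impact, and their right punch is labelled ipsilateral. For the ipsilateral side, 7 female and 6 male libraries of naive mice were compared with 7 female and 8 male libraries of the 24 h group, and with 9 female and 6 male libraries of the 72 h group; the contralateral side had 1 more male library in the last group. The comparisons are with naive rather than sham-operated mice, so the impact, the craniotomy, the anaesthetic and the analgesic cannot be told apart. A punch is a piece of whole tissue, so fewer cells of a type and less RNA per cell cannot be told apart either.

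Cholesterol made in the brain is used for membranes, synapses and myelin, because the blood-brain barrier keeps lipoproteins of the plasma out. Acetyl-CoA units are joined and reduced to mevalonate, mevalonate is turned into isoprene units, the units are condensed to squalene, and squalene is folded into lanosterol and trimmed in many steps to cholesterol. The chain is controlled by the SREBP factors, encoded by Srebf1 and Srebf2. When membrane sterol is low, the escort protein SCAP carries the SREBP precursor from the endoplasmic reticulum to the Golgi, where proteases release the active factor. When sterol is high, the INSIG proteins hold SCAP back. SREBP-2 acts mainly on sterol genes, and SREBP-1c mainly on fatty acid genes. Promoters of SREBP targets commonly combine a sterol regulatory element with sites for the factors NF-Y, which binds CCAAT boxes, and Sp1, which binds GC boxes.

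The promoters of 5 genes are shown because they stand for the parts of the pathway: Hmgcs1 for the early and Hsd17b7 for the late sterol chain, Insig1 for sterol sensing, Srebf2 for the factor itself, and Fasn for fatty acid synthesis. Sequences are from RefSeq (GRCm38.p6). They run 5′ to 3′ on the gene's strand, over at most 250 bases before the RefSeq start, and stop short of the first base of the GENCODE M21 gene model. Capitals mark TCACNCCA (a core of the sterol element), the CCAAT box, the GC box GGGCGG and the E-box CACGTG, searched on both strands, where neighbouring motifs may touch or overlap. The Hmgcs1 window is chr13:119690101-119690350 on the plus strand, that of Hsd17b7 is chr1:169969242-169969455 on the minus strand, that of Insig1 is chr5:28071162-28071362 on the plus strand, that of Srebf2 is chr15:82147019-82147180 on the plus strand and that of Fasn is chr11:120824548-120824797 on the minus strand.
Hmgcs1: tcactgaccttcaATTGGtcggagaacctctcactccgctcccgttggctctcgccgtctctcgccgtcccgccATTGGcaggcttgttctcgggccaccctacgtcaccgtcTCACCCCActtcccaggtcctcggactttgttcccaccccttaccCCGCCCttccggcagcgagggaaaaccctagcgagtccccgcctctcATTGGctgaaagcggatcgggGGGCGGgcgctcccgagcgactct
Hsd17b7: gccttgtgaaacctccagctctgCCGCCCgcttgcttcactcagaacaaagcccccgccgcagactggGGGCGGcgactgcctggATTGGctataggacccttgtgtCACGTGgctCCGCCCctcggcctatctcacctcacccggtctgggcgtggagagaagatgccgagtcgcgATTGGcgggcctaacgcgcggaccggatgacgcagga
Insig1: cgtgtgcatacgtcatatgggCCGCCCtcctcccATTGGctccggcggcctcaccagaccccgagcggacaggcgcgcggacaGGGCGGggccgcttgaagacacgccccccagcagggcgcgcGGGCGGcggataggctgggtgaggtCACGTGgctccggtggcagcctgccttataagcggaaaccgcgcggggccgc
Srebf2: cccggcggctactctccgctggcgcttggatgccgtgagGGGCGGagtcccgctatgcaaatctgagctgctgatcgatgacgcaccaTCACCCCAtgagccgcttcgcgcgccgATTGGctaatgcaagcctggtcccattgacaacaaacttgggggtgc
Fasn: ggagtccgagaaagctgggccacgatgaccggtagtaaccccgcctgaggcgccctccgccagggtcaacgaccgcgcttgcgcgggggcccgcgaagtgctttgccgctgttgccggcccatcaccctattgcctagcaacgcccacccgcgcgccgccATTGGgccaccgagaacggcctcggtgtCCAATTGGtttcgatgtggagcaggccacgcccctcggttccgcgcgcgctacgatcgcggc

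RefSeq windows of the full 250 bases were found for 27 of the 34 genes. Some genes had several starts and so several windows, and a match in any of them counted for the gene. CCAAT stood in the windows of 15 of 16 sterol chain genes (93.8%), of 4 of 5 sensing genes (80.0%) and of 2 of 6 fatty acid genes (33.3%), against 39.6% of the 12929 genes tested on the injured side that had a window and 37.5% of all 27025 genes with a window. GGGCGG stood in windows of 14 of the 16 sterol chain genes (87.5%), of all 5 sensing genes and of 3 of the 6 fatty acid genes (50.0%), against 59.2% of the tested genes and 35.4% of all genes. TCACNCCA stood in the windows of Hmgcs1, Msmo1 and Srebf2, which is 11.1% of the 27 genes against 4.15% of tested genes and 4.20% of all genes. The E-box stood in the windows of Dhcr7, Hsd17b7, Insig1, Sc5d and Scap (18.5%), against 9.20% of tested genes and 6.86% of all genes. These are matches of letters and not measured binding sites. In the Hmgcs1 window shown above, TCACNCCA begins 137 bases before the RefSeq start and CCAAT occurs at 3 places on the opposite strand.

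The libraries held 10.6 to 26.4 M counts (median 16.2 M, with M for mega). Levels are given as CPM, the counts of a gene per M counts of its library after TMM scaling of library sizes. Libraries belonged to the batches A, B and C of the labels: A held naive and 24 h mice, B all times, and C 72 h mice alone, so that 72 h is tied to naive only through the 5 injured-side libraries of batch B at 72 h (3 female, 2 male). Of the 88 libraries, 4 stood apart from the rest, with a median absolute log2 deviation from the other libraries of their side and time of 0.394 to 0.939 against at most 0.317 in the other 84: both libraries of female mouse LF3 (72 h, batch B) and the contralateral libraries of naive males KM2 and CM1. Results that rest on the 72 h mice are therefore given without LF3 too where the calls change. The next highest deviations, 0.317 and 0.302, were those of the ipsilateral libraries of naive mice KF3 and KM3. Both belong to batch B, which has 4 naive ipsilateral libraries. The ipsilateral library of mouse PM1 carries contradictory labels on sex and enters no comparison. It holds female transcripts (Xist at 458 and Ddx3y at 0 CPM) and the contralateral library of PM1 male ones (58.4 CPM of Ddx3y). The ipsilateral library labelled female PF1 holds male transcripts (Ddx3y at 57.7 and Xist at 0.108 CPM) and the contralateral library of PF1 female ones (Xist at 489 CPM). Each of these mice thus has punches that differ in sex transcripts, and whether the ipsilateral libraries were exchanged was not tested. PF1 was kept as labelled, all results were recomputed without it, and the PM1 values are given apart.

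Divided by exon length, the most abundant member in naive ipsilateral cortex was Scd2, a stearoyl-CoA desaturase of brain, at a mean of 248 CPM per kilobase. Fads1 (45.5), Hmgcs1 (40.0), Srebf2 (40.0), Scd1 (34.2), Acly (33.6) and Fasn (33.4) followed. Most sterol enzymes lay between 3.72 (Lss) and 18.8 (Fdft1) CPM per kilobase, and Fdps, at 0.301, stood far below its neighbours in the chain. The Fdps value is uncertain: the processed pseudogene Gm3571 matches Fdps transcripts at 98.9% over 1062 bases and holds 4866 counts in all libraries together, against 2204 for Fdps, so that reads of the gene may have been lost or given to its copies.

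At 24 h the injured cortex held more RNA for nearly every step of sterol synthesis. Of the 19 sterol chain genes, 16 rose against naive (mean of the sexes, edgeR quasi-likelihood test, adjusted p under 0.05) and 1, Ggps1, fell. Over all 34 members, 21 rose and 4 fell, while 22.9% of all genes tested rose and 20.1% fell. The median log2 fold change was 0.64 over the sterol chain and 0.09 over the sensing genes. It was -0.02 over the fatty acid genes and 0.01 over all 19126 genes tested. Without LF3, which is in neither group but shares the fit, 22 members rose and 5 fell, against 4910 and 4758 of 19062 genes. Among the 9 fatty acid genes, 3 rose and 2 fell with LF3, and 4 rose and 3 fell without it.

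**Figure D1:**
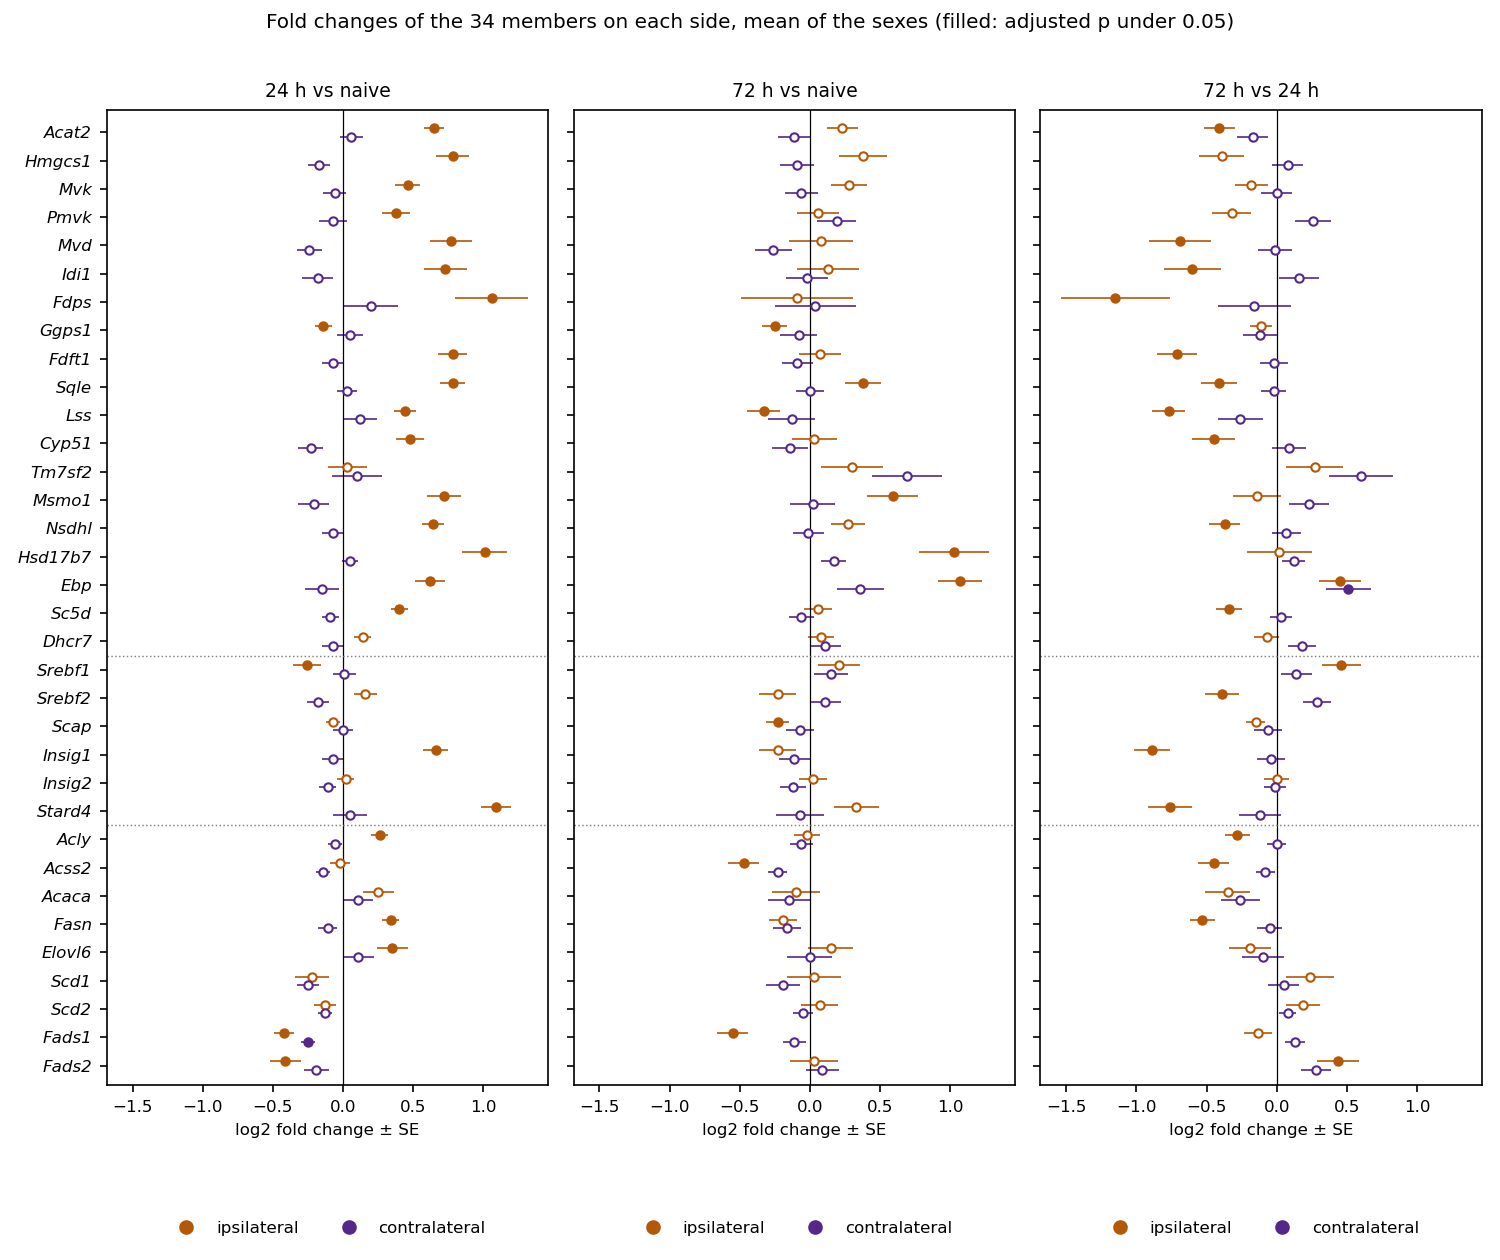
Log2 fold changes (mean of the sexes, horizontal axis) with standard errors for the 34 members (vertical axis, in pathway order, with dotted lines between sterol chain, sensing and fatty acid genes) at 24 h against naive, 72 h against naive and 72 h against 24 h. Orange is ipsilateral and purple contralateral, and filled points have an adjusted p under 0.05; in the left panel 21 orange points are filled to the right of 0 and no purple one is.

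The first steps lead from acetyl-CoA to mevalonate. Acat2, the cytosolic thiolase that joins acetyl-CoA units, held 28.4 to 39.8 CPM in naive ipsilateral cortex (median 34.3), 41.8 to 63.6 at 24 h (median 54.9) and 21.5 to 50.1 at 72 h (median 32.6). The lowest 24 h library lay above the highest naive one. Its log2 fold change at 24 h was 0.65 ± 0.07 (SE; edgeR adjusted p 1.93e-09). The near-identical gene Acat3 matches Acat2 at 97.7% over 1477 bases and holds 5589 counts in all libraries against 54012. Acat3 rose by 1.43 ± 0.19 at 24 h. Transcripts of Tcp1, a chaperonin subunit with 204879 counts, also match Acat2, at 98.7% over 445 bases, and Tcp1 rose by 0.28 ± 0.11, so that the Acat2 value is uncertain. Hmgcs1, the HMG-CoA synthase, lies on chromosome 13 (GRCm38, 119690379 to 119708260, plus strand). It held 136 to 214 CPM in naive ipsilateral cortex (median 193), 237 to 399 at 24 h (median 309) and 104 to 276 at 72 h (median 158). All 15 libraries at 24 h were above all 13 naive ones, whereas the 72 h libraries spread over both ranges. The log2 fold change at 24 h was 0.78 ± 0.12 (edgeR adjusted p 5.17e-07).

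The next enzymes phosphorylate mevalonate and decarboxylate it to the first isoprene unit. Mevalonate kinase (Mvk) rose at 24 h by 0.46 ± 0.09 on the log2 scale, phosphomevalonate kinase (Pmvk) by 0.38 ± 0.10 and the decarboxylase Mvd by 0.77 ± 0.15 (edgeR adjusted p 2.98e-05, 0.0015 and 5.64e-05). The kinases overlapped with naive more than the decarboxylase did: 10 of 15 libraries at 24 h exceeded every naive library for Mvk, 5 for Pmvk and 13 for Mvd. Idi1, the isomerase that supplies the second isoprene unit, held 9.95 to 28.5 CPM in naive ipsilateral cortex (median 20.0), 25.8 to 40.6 at 24 h (median 32.1) and 6.57 to 33.3 at 72 h (median 16.3). At 24 h the log2 fold change was 0.73 ± 0.15 (edgeR adjusted p 7.25e-05), and 12 of 15 libraries at 24 h exceeded every naive one.

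The isoprene units are then condensed. Fdps, the farnesyl diphosphate synthase, rose by 1.06 ± 0.26 at 24 h (edgeR adjusted p 0.000768), but on 1.57 to 3.85 CPM at 24 h and 0 to 1.96 CPM in naive cortex. Its pseudogene Gm3571 moved with it (0.84 ± 0.16). Ggps1, which makes geranylgeranyl diphosphate for protein prenylation and so leads away from sterols, fell by 0.14 ± 0.06 on the log2 scale (edgeR adjusted p 0.0366), with no 24 h library outside the naive range. Fdft1, squalene synthase, rose by 0.78 ± 0.10 (edgeR adjusted p 1.03e-08), from 61.2 to 99.8 CPM in naive cortex to 112 to 169 at 24 h. Fdft1 shares 774 exon bases with Ctsb on the opposite strand, and the strand of the counts is not known. Ctsb rose by less at 24 h (0.37 ± 0.12), and at 72 h against naive Ctsb was higher by 1.38 ± 0.17 while Fdft1 differed by 0.07 ± 0.15.

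Squalene epoxidase (Sqle), a rate-limiting oxygen-dependent step, lies on chromosome 15 (59315077 to 59331192, plus strand). It held 47.4 to 66.0 CPM in naive ipsilateral cortex (median 54.9), 81.2 to 120 at 24 h (median 100.0) and 46.3 to 102 at 72 h (median 60.2). Its naive and 24 h libraries did not overlap. The log2 fold change at 24 h was 0.78 ± 0.09 (edgeR adjusted p 1.16e-09). Lss, the cyclase that folds squalene epoxide into lanosterol, held 35 to 48.4 CPM in naive cortex (median 38.6), 46.7 to 66.4 at 24 h (median 53.8) and 14.2 to 39.7 at 72 h (median 35.4). It rose by 0.44 ± 0.08 at 24 h (edgeR adjusted p 1.75e-05).

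The steps after lanosterol differed more among themselves. Cyp51, the lanosterol demethylase, rose by 0.48 ± 0.10, Msmo1, the methylsterol oxidase, by 0.72 ± 0.12, and Nsdhl, which removes the oxidised methyl carbons, by 0.64 ± 0.08 (edgeR adjusted p 0.000218, 2.39e-06 and 5.72e-09). Hsd17b7, the ketoreductase of the same complex, on chromosome 1 (169949535 to 169969241, minus strand), showed a larger difference. It held 27.5 to 36.9 CPM in naive ipsilateral cortex (median 30.1), 44.5 to 83.2 at 24 h (median 61.5) and 25.2 to 143 at 72 h (median 33.9), where the 143 belonged to mouse LF3. At 24 h the log2 fold change was 1.01 ± 0.16 (edgeR adjusted p 2.74e-06). Tm7sf2, a sterol reductase, differed by 0.03 ± 0.14 (adjusted p 0.888), and it shares 532 exon bases with Vps51 on the same strand.

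The sterol isomerase Ebp, on chromosome X (8185329 to 8193512, minus strand), held 10.5 to 19.4 CPM in naive ipsilateral cortex (median 15.2), 20.0 to 29.2 at 24 h (median 23.3) and 21.2 to 61.8 at 72 h (median 26.9). Both injured groups lay wholly above naive. The log2 fold change at 24 h was 0.62 ± 0.11 (edgeR adjusted p 7.81e-06). The desaturase Sc5d rose by 0.40 ± 0.06 (edgeR adjusted p 2.24e-06). Dhcr7, the reductase at the end of the chain, did not pass the test at 24 h, with a log2 fold change of 0.14 ± 0.06 (edgeR adjusted p 0.0567).

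**Figure D2:**
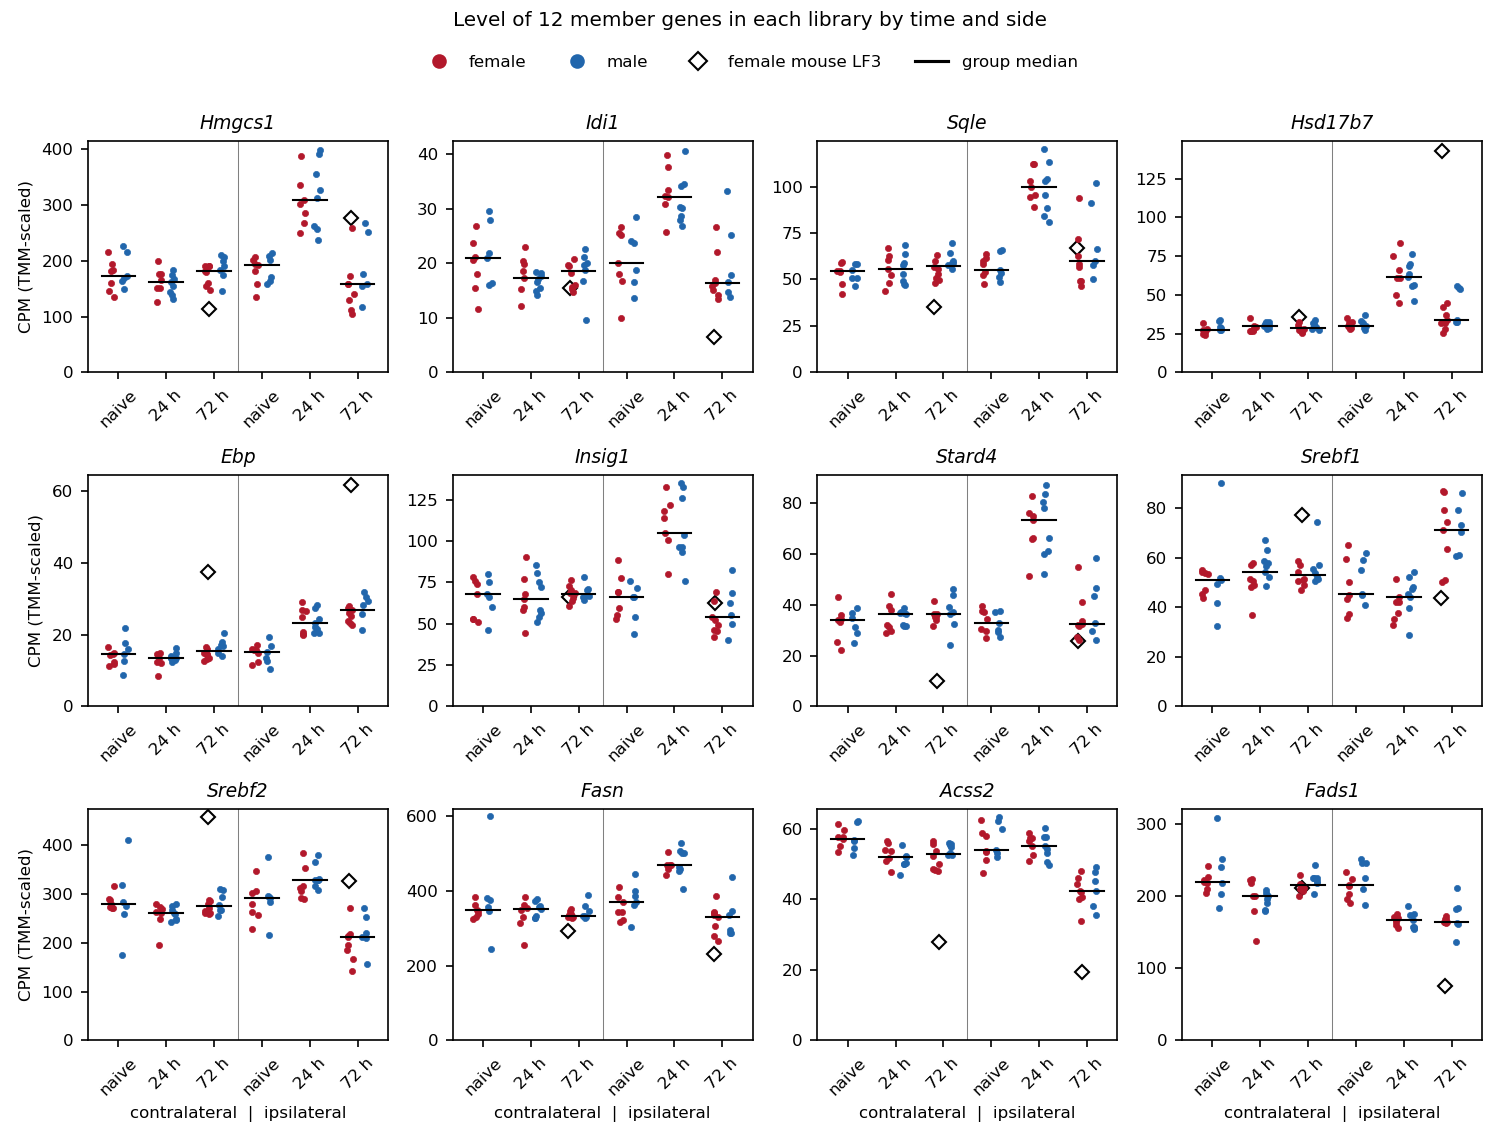
CPM in each library (vertical axis, linear from 0) of 12 members against time, with contralateral groups left and ipsilateral groups right of the grey line in each panel. Red points are females, blue points males, black bars group medians over both sexes and open diamonds the libraries of mouse LF3; Hmgcs1 libraries of the injured side at 24 h lie at 237 to 399 CPM, above all naive ones.

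Among the genes that sense sterols, those for the pathway's own inhibitor and for a sterol carrier moved most. Insig1, the retention protein that is itself an SREBP target, lies on chromosome 5 (28071363 to 28078662, plus strand). It held 43.8 to 88.6 CPM in naive ipsilateral cortex (median 66.4), 75.6 to 135 at 24 h (median 105) and 40.0 to 82.8 at 72 h (median 54.2). The log2 fold change at 24 h was 0.66 ± 0.09 (edgeR adjusted p 6.03e-08), and 13 of 15 libraries at 24 h lay above every naive one. Stard4, a soluble carrier that moves cholesterol between membranes, held 27.1 to 39.6 CPM in naive cortex (median 32.9), 51.4 to 87.2 at 24 h (median 73.6) and 25.7 to 58.7 at 72 h (median 32.4). Its naive and 24 h libraries did not overlap, and its log2 fold change of 1.09 ± 0.11 (edgeR adjusted p 6.11e-11) was above those of the other 33 members.

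The factors and their escort showed smaller differences. Srebf2 held 215 to 376 CPM in naive ipsilateral cortex (median 291), 289 to 383 at 24 h (median 328) and 143 to 326 at 72 h (median 212). At 24 h the difference from naive was 0.16 ± 0.08 and did not pass the test (edgeR adjusted p 0.112). Srebf1 held 35.8 to 65.0 CPM in naive cortex (median 45.5), 28.7 to 54.3 at 24 h (median 44.0) and 43.8 to 86.9 at 72 h (median 71.3). It fell by 0.26 ± 0.10 at 24 h (edgeR adjusted p 0.0326), with 3 libraries below the naive range. Neither Scap (-0.07 ± 0.05) nor Insig2 (0.02 ± 0.06) passed the test at 24 h.

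The fatty acid genes did not move as one. Acly, which cleaves citrate to cytosolic acetyl-CoA, rose by 0.26 ± 0.06, and Elovl6, which lengthens palmitate, by 0.35 ± 0.11 (edgeR adjusted p 0.000769 and 0.0084). Fasn, the fatty acid synthase, held 303 to 444 CPM in naive ipsilateral cortex (median 369), 404 to 528 at 24 h (median 468) and 231 to 436 at 72 h (median 329). It rose by 0.34 ± 0.06 at 24 h (edgeR adjusted p 2.42e-05). Acaca, the acetyl-CoA carboxylase, did not pass the test (0.25 ± 0.11, adjusted p 0.0675), and its transcripts match the pseudogene Gm5182 at 99.2% over 6118 bases. Acss2, which makes acetyl-CoA from acetate, held 47.6 to 63.3 CPM in naive cortex (median 53.9) and 49.7 to 60.2 at 24 h (median 55.2). At 72 h it held 19.5 to 49.3 CPM (median 42.3). Its difference at 24 h was -0.02 ± 0.07. Acss2 shares exon bases on the opposite strand with Ggt7 (197 bases) and Gss (395), and the strand of the counts is not known. Ggt7 holds 219745 counts in all libraries against 76037 for Acss2. Ggt7 differed by -0.04 ± 0.06 at 24 h and by -0.46 ± 0.10 at 72 h against naive, so the Acss2 value is uncertain.

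The desaturases stood on the other side of 0. Fads1, which makes arachidonic and eicosapentaenoic acid, held 188 to 252 CPM in naive ipsilateral cortex (median 216), 155 to 187 at 24 h (median 167) and 75.2 to 211 at 72 h (median 165). Every 24 h library lay below every naive one, and the log2 fold change was -0.42 ± 0.07 (edgeR adjusted p 4.5e-06). Fads2, the desaturase before it, fell by 0.41 ± 0.11 (edgeR adjusted p 0.00197), with 13 of 15 libraries below the naive range. The stearoyl-CoA desaturases Scd1 (-0.22 ± 0.12) and Scd2 (-0.13 ± 0.08) did not pass the test. Transcripts of these neighbours are alike (95.5% over 623 bases), so reads may have been split between them.

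Of 33 other measured genes of these pathways (prenyl transfer, fatty acid elongation and activation, SREBP proteases), 13 rose and 7 fell at 24 h (22.9% and 20.1% of all genes), with a median of 0.09. The fatty acid elongases went both ways: Elovl1 rose by 0.67 ± 0.08 and Elovl7 by 0.78 ± 0.13, and Elovl2 fell by 0.56 ± 0.10 (edgeR adjusted p 8.36e-09, 3.29e-06 and 1.81e-05). Fntb, the farnesyltransferase subunit, rose by 0.39 ± 0.06 and the phosphatidate phosphatase Lpin1 by 0.41 ± 0.07, while the dehydratase Hacd3 fell by 0.27 ± 0.04, the mitochondrial carboxylase Acacb by 0.94 ± 0.16 and the elongase Elovl5 by 0.33 ± 0.06. Values for the SREBP proteases Mbtps1 (-0.05 ± 0.06) and Mbtps2 (-0.04 ± 0.10) did not pass the test.

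In batch A alone 22 members were called higher and 3 lower at 24 h (median 0.39), against 19.4% and 18.8% of all genes. In batch B alone, with 4 naive libraries, 14 were higher and 2 lower (median 0.38), against 13.1% and 9.89% of all genes. Stard4 was higher in both (1.00 and 1.21), as were Hmgcs1 (0.70 and 0.89), Sqle (0.82 and 0.73) and Hsd17b7 (0.94 and 1.10). Ggps1 was lower in batch A (-0.31) and not called in batch B (0.09). Srebf1 was lower in batch B (-0.49) and not called in batch A (-0.10).

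On the side opposite the impact none of the 34 members was higher at 24 h, and 1 was lower: Fads1, by 0.25 ± 0.05 on the log2 scale (edgeR adjusted p 0.00735), beside 2.10% of all genes called in either direction. At an unadjusted p under 0.05, 9 of the 34 members differed, against 2506 of all 18436 genes tested. Contralateral Hmgcs1 held 136 to 226 CPM in naive mice (median 172), 126 to 199 at 24 h (median 162) and 114 to 210 at 72 h (median 182). Contralateral Sqle held 42.2 to 59.5 CPM in naive mice (median 54.5), 43.6 to 68.4 at 24 h (median 55.9) and 35.2 to 69.7 at 72 h (median 57.1). Contralateral Stard4 held 22.1 to 43.3 CPM in naive mice (median 34.1), 29.0 to 44.5 at 24 h (median 36.3) and 10.2 to 46.4 at 72 h (median 36.3). For each of these genes the groups overlapped almost wholly. Without LF3, which is in neither group but shares the fit, 4 members were called lower on this side at 24 h (Cyp51, Acss2, Scd1 and Fads1, at -0.25 to -0.15; 4.07% of all genes), and at 72 h against naive the count stayed at 0 of 34.

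At 72 h against naive no member was called on the opposite side (0.260% of all genes called), and DESeq2 called none either. At an unadjusted p under 0.05, 3 members differed, against 3047 of all 18436 genes tested. At 72 h against 24 h, Ebp alone was called there (0.51 ± 0.16, edgeR adjusted p 0.0371; 9.21% of all genes). Contralateral Ebp held 8.61 to 16.4 CPM at 24 h and 12.8 to 37.5 at 72 h, the highest being LF3, and without LF3 no member was called.

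Comparing the 2 punches labelled with the same mouse removes differences between animals, except in PF1, whose punches differ in sex transcripts. In naive mice no member differed between the sides, nor did any of all genes tested (0%). No member reached an unadjusted p under 0.05, against 574 of all 19946 genes. At 24 h, 24 members were higher and 3 lower in the ipsilateral punch (23.7% and 24.1% of all genes). The ipsilateral punch held more than the contralateral one in all 15 mice for each of the 17 sterol chain genes called higher, and for Srebf2, Insig1 and Stard4. The side difference at 24 h was 1.06 ± 0.09 for Hsd17b7, 1.00 ± 0.09 for Stard4, 0.99 ± 0.12 for Mvd and 0.94 ± 0.10 for Hmgcs1. Srebf2, whose difference from naive did not pass the test, was higher ipsilaterally by 0.34 ± 0.06 (edgeR adjusted p 4.02e-06).

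**Figure D3:**
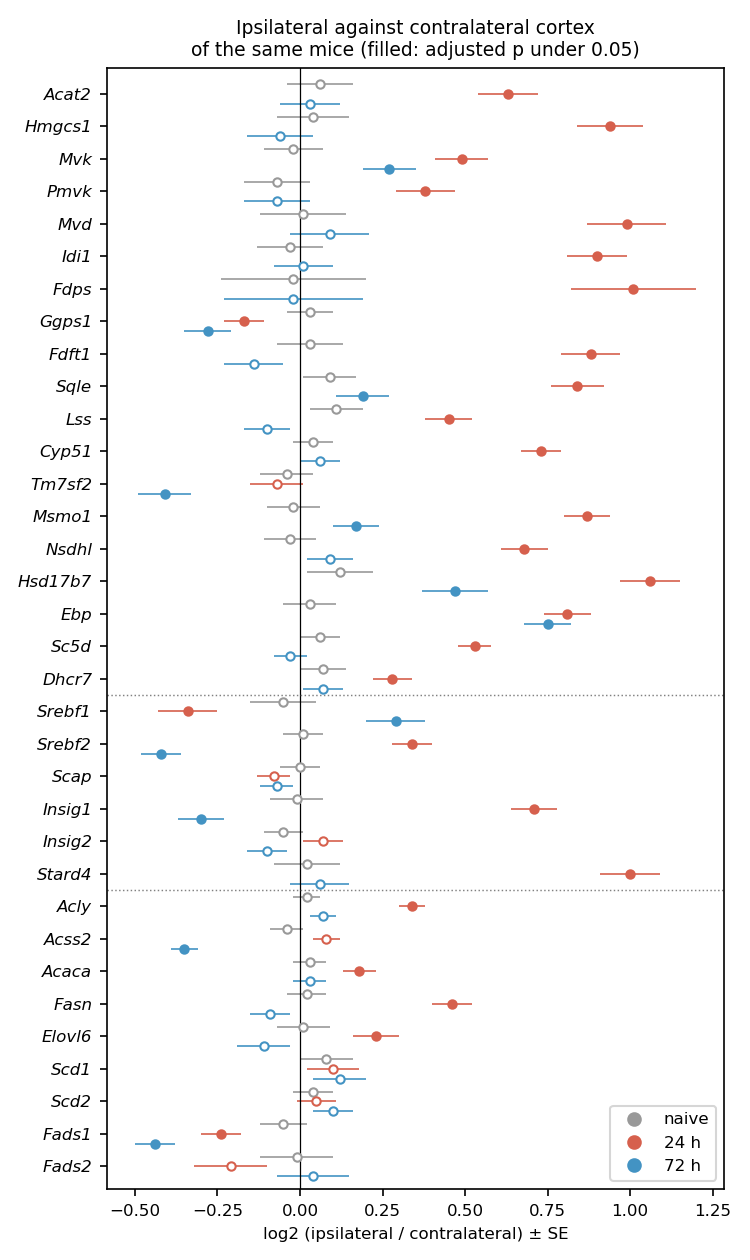
Log2 ratio of the ipsilateral to the contralateral punch of the same mice (horizontal axis) with standard errors for the 34 members (vertical axis), from a fit with the animal as a block. Grey is naive, red 24 h and blue 72 h, and filled points have an adjusted p under 0.05; all grey points are open, and Hsd17b7 and Stard4 stand near 1 at 24 h.

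The change of the side difference from naive to 24 h tests the 2 sides against each other. It was higher for 21 members and lower for none (16.0% and 14.7% of all genes), with a median of 0.44 against -0.01 over all 19946 genes tested. The sterol chain had 16 of these, the sensing genes 3 and the fatty acid genes 2, Acly (0.31 ± 0.06) and Fasn (0.44 ± 0.09). Without LF3, whose libraries share the fit, 23 members were higher and 2 lower (18.6% and 17% of all genes). Dhcr7 (0.23) and Acaca (0.16) were then called higher, and Ggps1 (-0.19) and Fads1 (-0.18) lower. With LF3, the changes in side difference of Fads1 (-0.19 ± 0.09, adjusted p 0.113) and Fads2 (-0.21 ± 0.16, adjusted p 0.347) did not pass the test, and both genes also had negative values on the opposite side (-0.25 and -0.19).

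The injured side held less RNA for many of these genes at 72 h than at 24 h; this comparison shares the 24 h libraries with the one above. On that side 16 members fell and 3 rose from 24 to 72 h (15.3% and 21.7% of all genes), with a median of -0.33 against 0.01 over all genes. Insig1 fell by 0.89 ± 0.13, Lss by 0.77 ± 0.12, Stard4 by 0.76 ± 0.16, Fdft1 by 0.71 ± 0.14, Mvd by 0.69 ± 0.22 and Idi1 by 0.60 ± 0.20 on the log2 scale (edgeR adjusted p 1.01e-06, 1.97e-06, 0.000182, 0.000123, 0.0128 and 0.0189). Acat2, Fdps, Sqle, Cyp51, Nsdhl, Sc5d, Srebf2, Acly, Acss2 and Fasn fell too. Ebp, Srebf1 and Fads2 rose. Without LF3, 15 members fell and 4 rose (14.7% and 18.5% of all genes), and the calls changed for single genes: Hmgcs1 fell by 0.54, Msmo1 by 0.45 and Hsd17b7 by 0.63 without it, Scd1 and Scd2 rose, and Ebp (0.11), Mvd, Idi1, Cyp51 and Acly were no longer called. Without PF1 the calls held and Hmgcs1 (-0.44), Pmvk (-0.41) and Acaca (-0.48) were called lower too. Within batch B alone, 9 members fell and 1 rose (6.69% and 13.9% of all genes).

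At 72 h against naive, comparisons that share the naive libraries with those at 24 h, 4 members were higher and 5 lower (27.8% and 20.7% of all genes), with a median of 0.06. The 4 higher ones were Ebp (1.07 ± 0.16), Hsd17b7 (1.03 ± 0.25), Msmo1 (0.59 ± 0.18) and Sqle (0.38 ± 0.13). Without LF3 Ebp stood at 0.72 and Sqle remained called, while Hsd17b7 (0.37) and Msmo1 (0.27) were not called, and Mvk (0.39), Nsdhl (0.33) and Stard4 (0.41) were, so that 5 members were higher and 5 lower (25.7% and 22.6% of all genes). The 5 lower ones were Ggps1 (-0.25 ± 0.09), Lss (-0.33 ± 0.12), Scap (-0.23 ± 0.08), Acss2 (-0.47 ± 0.11) and Fads1 (-0.55 ± 0.11). Lss was not called without LF3 (-0.18), and Srebf2 was called lower (-0.38). Without PF1, Sqle (0.28) was not called and Fasn (-0.24) was called lower. In batch B alone 4 members were called, Ebp higher and Scap, Acss2 and Fads1 lower, against 19.4% and 14.2% of all genes. The fold changes from all mice are adjusted for batch, whereas CPM medians pool the batches without adjustment, and they can differ. Ipsilateral medians were 85.9 CPM (naive) and 89.2 (72 h) for Scap, and 74.4 and 65.0 for Msmo1. These went against the calls, and medians of the other members called with all mice went with theirs. Stard4, called without LF3, then had medians of 32.9 and 32.6 CPM.

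**Figure D4:**
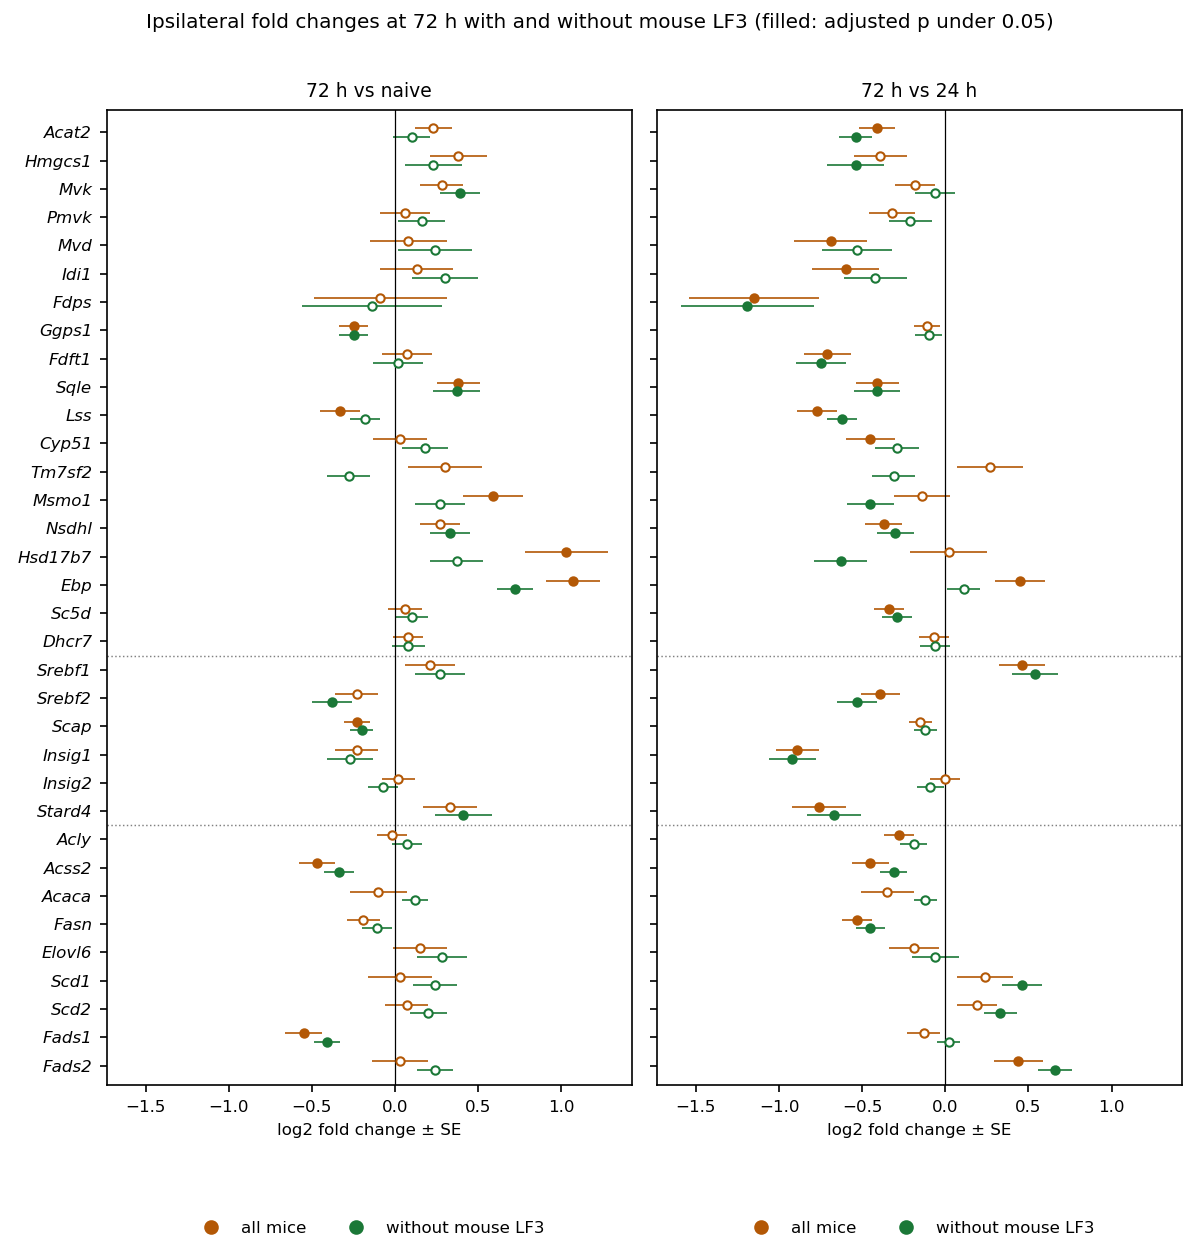
Ipsilateral log2 fold changes (horizontal axis, mean of the sexes) with standard errors for the 34 members (vertical axis) at 72 h against naive and at 72 h against 24 h, from all mice (orange) and without mouse LF3 (green). Filled points have an adjusted p under 0.05; Hsd17b7 moves from 1.03 to 0.37 in the left panel and from 0.02 to -0.63 in the right one.

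Between the sides at 72 h, 6 members were higher and 6 lower in the ipsilateral punch (31.1% and 30.6% of all genes). Without LF3, 10 were higher and 7 lower (33.6% and 30.6% of all genes): Dhcr7 (0.13), Scd1 (0.19), Scd2 (0.15) and Fads2 (0.17) were then called higher, and Insig2 (-0.13) lower. Without PF1, 4 were higher and 6 lower (31.7% and 29.3% of all genes), and Sqle (0.16) and Msmo1 (0.14) were not called. Ebp was higher in all 15 mice, by 0.75 ± 0.07, and Hsd17b7 in 13 mice, by 0.47 ± 0.10 (edgeR adjusted p 1.36e-12 and 3.83e-05). Srebf1 was higher in 13 mice (0.29 ± 0.09). Srebf2 was lower in all 15 mice, by 0.42 ± 0.06 on the log2 scale, Acss2 in all 15, by 0.35 ± 0.04, and Fads1 in all 15, by 0.44 ± 0.06 (edgeR adjusted p 5.23e-08, 1.86e-09 and 4.03e-08). Insig1 was lower by 0.30 ± 0.07. Ggt7, which shares exon bases with Acss2, was lower by 0.43 ± 0.07, and its part in the Acss2 values was not tested. Among the 14 mice other than PF1, Ebp was higher in 14, Hsd17b7 in 12 and Srebf1 in 13, and Srebf2, Acss2 and Fads1 were higher in 0. The side difference at 72 h departed from the naive one upwards for 4 members and downwards for 6 (25.1% and 23.1% of all genes), with a median of 0.00; the 4 were Mvk, Hsd17b7, Ebp and Srebf1, and the 6 were Ggps1, Tm7sf2, Srebf2, Insig1, Acss2 and Fads1. Without LF3 it did so upwards for 4 and downwards for 7, with Lss (-0.24) added (27.8% and 23.8% of all genes), and without PF1 Mvk was not called. From 24 to 72 h it fell for 22 members and rose for 1, Srebf1 (16.4% and 18.9% of all genes), with a median of -0.50. Insig1 and Hmgcs1 (both -1.01) and Fdft1 (-1.02) had the lowest values apart from Fdps (-1.03), and Ebp had -0.07 ± 0.10. Without LF3 it fell for 23 and rose for 2, Srebf1 and Fads2 (17.7% and 21.8% of all genes).

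No difference between the sexes in these changes passed the test, with PF1 counted as female as labelled and the ipsilateral PM1 library left out. At 24 h on the injured side 22 members were higher in females and 19 in males (16.2% and 16.1% of all genes called higher). Stard4 rose by 1.05 in females and 1.13 in males, Hsd17b7 by 1.03 and 0.99, and Hmgcs1 by 0.77 and 0.79. Pmvk, Dhcr7 and Elovl6 passed the test at 24 h in females and not in males, but the interaction of sex and injury was called for 0 genes at 24 h (0%) and 0 at 72 h (0%) on this side, with 299 and 580 of 19126 genes and 0 members at an unadjusted p under 0.05. At 72 h against naive 7 members were called in either direction in females and 7 in males (45.5% and 36.3% of all genes). Without LF3, 2 were higher and 4 lower in females, against 4356 and 3730 of 19062 genes tested. In males 5 were then higher and 4 lower, against 4247 and 3617 genes. The female injured-side libraries of batch B at 72 h include those of LF3 and PF1, and that of PF1 holds male transcripts. Contralaterally 0 members were called in females at 24 h (0.0922% of all genes) and 0 at 72 h (3.09%). In males 1 was called at 24 h (1.00%) and 0 at 72 h (0.00542%). The interaction there was called for 0 genes at either time (0%). At an unadjusted p under 0.05 it had 1 member and 584 of 18436 genes at 24 h, and 0 members and 672 genes at 72 h.

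The markers of cell types in the punches also differed between the groups. In naive ipsilateral cortex 5 neuronal markers summed to 5790 to 6700 CPM, 5 astrocyte markers to 2910 to 5710, 5 markers of mature oligodendrocytes to 730 to 2620, and 5 markers of microglia and macrophages to 15.7 to 40.9, and no marker was at 0 throughout. At 24 h the neuronal sum was 5140 to 6610 and 1 of 5 markers (Syt1) fell; the astrocyte sum was 1920 to 3440, with 3 of 5 markers lower and 2 higher; the oligodendrocyte sum was 1250 to 3600, with 2 of 5 higher. Precursor cells of oligodendrocytes, with 4 markers, went from 129 to 167 CPM to 89.8 to 128 at 24 h, with 3 of 4 lower. In the fit without LF3, Pdgfra, Cspg4 and Gpr17 were lower at 24 h and Vcan was higher (0.34 ± 0.14). At 72 h the precursor sum was 148 to 408, with 4 of 4 higher. The microglial and macrophage sum was 64.5 to 249 at 24 h and 230 to 1230 at 72 h, with all 5 markers higher at both times. The endothelial sum of 5 markers was 161 to 230 in naive cortex, 211 to 303 at 24 h and 307 to 580 at 72 h. In the fit without LF3, Pecam1 (1.08) and Cdh5 (1.11) were higher at 24 h against naive. Cldn5 (-0.13), Flt1 (0.08) and Kdr (0.06) were not called. At 72 h against naive Pecam1, Cdh5, Cldn5 and Kdr were higher in that fit, and Flt1 (-0.11) was not called. At 72 h the neuronal sum ran from 2740 to 13300 (median 4350, against 6150 in naive cortex), the astrocyte sum from 1230 to 3050 (median 2300) and the oligodendrocyte sum from 699 to 4030 (median 2760, against 1200). Of the markers 3 of 5 neuronal ones were lower and 1 higher, 1 of 5 astrocyte ones lower and 2 higher, and 4 of 5 oligodendrocyte ones higher. Without LF3 the neuronal sum was 2740 to 5350 (4 of 5 markers lower), below every naive library, the astrocyte sum 1650 to 3050 (1 lower, 3 higher), and the oligodendrocyte sum 1080 to 4030 (5 of 5 higher). The part of these shifts in the members' changes was not tested.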

How the data were processed

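Per the labels, polyadenylated RNA of 4 mm cortical punches was sequenced, and per the submitters' processing notes the aligner was HISAT2 2.0.5 and the genome mm10; how reads were counted, and on which annotation and strand, is not given in the sources used here. As values, the authors deposited raw counts per gene and library, and CPM, log2 fold changes and all tests were computed here from these deposited counts. Identifiers were matched to GENCODE M21 (GRCm38) for 54409 of 54532 genes; the 123 others held 0.0615% of counts. The members were taken by symbol, and the members and lists were chosen with earlier results of these data known. All members are named, and at most 4 other pathway genes per direction, those with the smallest p at 24 h, besides the SREBP proteases, which were chosen for their role.

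Ipsilateral (43 libraries, 35 residual degrees of freedom) and contralateral libraries (44 and 36) were each fitted with edgeR 4.0.16 (R 4.3.3): filterByExpr, TMM, sex by time groups, batch, and a two-sided quasi-likelihood F test. The sides were compared in 86 libraries of 43 mice (37 degrees of freedom) with the animal, named in the labels, as a block, PF1 included. Benjamini-Hochberg adjustment ran over every gene of a fit, with calls made below an adjusted p of 0.05; the SE is the log2 fold change over the square root of F. The alternatives were RLE factors, library size alone, no filter on low counts, DESeq2 1.42.0, no batch term, batch A or B alone, leaving out PF1 and no animal block; leaving out LF3, and LF3 with KM2 and CM1, was added after seeing the data. The test was also run on simulated counts with known changes on the injured side at 24 h alone. The simulation had a single spread for all genes, no batch effect and no outlying mouse, so it does not bear on the 72 h calls. Replicates are separate mice. The depth of 10.6 to 26.4 M counts gives the least precision for genes near 1 CPM, such as Fdps.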

Additional observations from a re-analysis of the deposited data

Results flagged for a closer look

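Gaps within groups of 4 to 10 libraries were examined for 13 members (156 comparisons of a gene and a group), where a single library at the edge of its group was marked if it lay farther from the rest than Dixon's criterion allows. Chance marks about 1 in 20, and 20 of 156 (12.8%) were marked, of which 7 in the contralateral and 5 in the ipsilateral punch of mouse LF3. In the contralateral punch of LF3 the levels were 6.99 CPM for Lss, 10.2 for Stard4, 292 for Fasn and 28.0 for Acss2, the lowest of the 72 h females, and 37.5 for Ebp, 457 for Srebf2 and 77.3 for Srebf1, the highest. In its ipsilateral punch Lss (14.2 CPM), Acss2 (19.5) and Fads1 (75.2) were lowest and Hsd17b7 (143) and Ebp (61.8) highest. The contralateral punch of naive male KM2 held the lowest Lss (21.4 CPM) and the highest Srebf1 (90.1) of its group. Among 24 h females, contralateral Hsd17b7 was highest in QF2 (34.9 CPM), contralateral Ebp (8.61) and Srebf2 (196) were lowest in QF1, and ipsilateral Fasn was highest in FF3 (504). Contralateral Srebf2 was highest in naive female KF3 (316 CPM), and contralateral Srebf1 in 72 h male LM2 (74.5).

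The difference between the sides of the same mice itself changed with time by test. Between 24 h and naive 21 members differed in it, against 16.0% of all genes called higher and 14.7% lower. Between 72 h and naive 10 did (25.1% and 23.1% of all genes), and between 72 h and 24 h 23 did (18.9% and 16.4%). No member passed the test of a difference between the sexes in its response on either side, with PF1 counted as labelled.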

How the results depend on the processing

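Of the recomputed counts of called members, 186 stayed within 1.5 times of the reported one and 32 did not, and of the recomputed fold changes of single members 578 kept direction and side of the threshold, 36 lost the call, 28 gained it and 4 reversed. The count of members higher at 24 h on the injured side stayed within that margin under every alternative run. The 4 reversals were Hsd17b7 at 72 h against 24 h (-0.48 with no batch term, -0.63 without LF3 and -0.63 without LF3, KM2 and CM1) and Ggps1 at 24 h against naive (0.09 in batch B alone). On the injured side, batch B alone called 4 members at 72 h against naive, 9 as lower at 72 h against 24 h, 1 in females and 5 in males as higher at 24 h, and, in either direction at 72 h, 2 in females but 0 in males; with no batch term 11 were called in 72 h females. Batch B has 4 naive libraries. Contralateral counts rest on 0 or 1 calls. At 24 h against naive they became 0 with library size alone, no filter or batch B alone, 2 with DESeq2, 4 without LF3 and 3 without LF3, KM2 and CM1; in males alone they became 0 with RLE factors, library size alone, no filter, no batch term, batch A or batch B alone, and 4 without LF3. At 72 h against 24 h they became 0 with library size alone, no filter, no batch term, batch B alone, without LF3 or without LF3, KM2 and CM1, and 3 without PF1. At 72 h against naive they became 1 without PF1 or with no batch term, and in females 1 with RLE factors or no batch term and 3 without PF1. Without the replicate block of the animal, 22 members were higher ipsilaterally at 24 h and 20 gained in side difference from naive, and the block changed no count of calls by over 1.5 times. With library size alone the median of all genes was 0.11 between the sides at 72 h (-0.02 with TMM) and -0.11 contralaterally from 24 to 72 h (-0.01 with TMM). Depth limits Fdps most.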

Other observations

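The ipsilateral library of mouse PM1 at 72 h, whose labels contradict each other on sex, entered no comparison. It held 203 CPM of Hmgcs1, 71.4 of Sqle, 57.0 of Hsd17b7, 28.5 of Ebp, 74.1 of Insig1, 49.5 of Stard4, 60.8 of Srebf1, 243 of Srebf2, 310 of Fasn, 41.9 of Acss2 and 154 of Fads1.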
